A study of Saccharomyces cerevisiae with 34 samples.

Results

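The 8 genes described here, *FET3*, *FTR1*, *FIT2*, *FIT3*, *SIT1*, *HMX1*, *DRE2* and *ISU1*, serve iron uptake, heme breakdown and the assembly of iron-sulfur clusters in budding yeast. They are 8 of the 6209 genes in the deposited tables, and all 8 had passed the authors' filter on low counts. The group was chosen by a measured value, the low level of *DRE2* before induction in *psh1Δ pGAL-3Flag-CSE4* cells. That contrast, with WT before galactose, is therefore given only as a description.

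The study asked what excess CENP-A (Cse4), the centromeric form of histone H3, does to transcription when it is misplaced to the chromosome arms. RNA was sequenced from asynchronous cultures before galactose (t0) and after 2 h in galactose (t2), in 34 libraries from 17 strains of 6 genotypes. The labels place 3 cultures of each genotype in batches 1, 2 and 3, but *pGAL-3Flag-CSE4* has no culture of batch 1 and so 2 in all. Each culture was a separate strain, sampled once at each time, so the spread within a genotype includes strain, culture and batch.

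All strains were W303 *MATa RAD5+ bar1-1* and auxotrophic for uracil, leucine, histidine, tryptophan and adenine, apart from the markers named next. All were grown in YEP with lactic acid at 23 °C and all, WT included, received 2% galactose. *psh1Δ* lacked the ubiquitin ligase that targets excess Cse4 for proteolysis, and *htz1Δ* lacked the histone variant H2A.Z. *pGAL-3Flag-CSE4* carried a tagged *CSE4* under the galactose-inducible promoter at the mutant *leu2* locus, with *LEU2* as the marker, and *psh1Δ pGAL-3Flag-CSE4* carried the same insertion together with the *PSH1* deletion. *pGAL-H3* carried histone H3 under the same promoter at the mutant *trp1* locus, with *TRP1* as the marker. The insertion of *pGAL-3Flag-CSE4* and the *LEU2* marker thus came together in all 10 libraries that had either, and their parts in any difference cannot be told apart.

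The counts on genes totalled 5258139 to 6836827 per library, with a median of 5852828. Levels are given in CPM, counts scaled to a common library total, after TMM normalization, which scales each library by the trimmed mean of its ratios to a reference library. Genes are said to be called where edgeR gave a fold change of at least 1.5 and a p under 0.05 after Benjamini-Hochberg adjustment over all 6209 genes. *CSE4* lay between 20.5 and 29.3 CPM in the 24 libraries without the insertion, between 34.1 and 53.8 CPM in the 5 libraries with it at t0, and between 10830 and 21978 CPM in those at t2. *PSH1* stood at 0 to 0.54 CPM in the 12 libraries of *psh1Δ* genotypes and at 29.0 CPM or more in the others, *HTZ1* at 0 to 0.39 CPM in *htz1Δ* and at 96.7 CPM or more elsewhere, and *HHT1*, a gene for H3, at 4063 to 4410 CPM in *pGAL-H3* at t2 and at no more than 1147 CPM elsewhere. All 8 genes had unique 50-base windows over their whole length, and no annotated gene overlapped them.

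Yeast cells short of iron switch on a set of genes through the transcription factors Aft1 and Aft2, which bind a core sequence in their promoters. These genes encode a high-affinity pair of an oxidase and a permease for free iron, cell wall proteins and transporters for iron bound to siderophores, and enzymes that release stored iron. Iron-sulfur clusters are built on scaffold proteins in mitochondria, a separate machinery serves cytosolic proteins, and Aft1 and Aft2 respond to the mitochondrial step.

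The promoter sequences in question are shown here because the core, over 500 bases, was present in all members but *DRE2*. The core was searched as TGCACCC on both strands. In the 500 bases before the start codon, a window added after the data were seen, it was present in 7 of the 8 genes. These were all but *DRE2*, and 140 of 6000 genes overall (2.33%) had it. In a shorter window, from 250 bases before to 50 bases after the start, it was present in 4 of the 8 and in 1.30% of 6001 genes. There *FET3*, *HMX1* and *ISU1* lacked it as *DRE2* did, so that window did not separate *DRE2*. The cores of *FET3* and *ISU1* began 251 and 252 bases before the start, just past the edge of that window, and that of *HMX1* 451 bases before it. The *DRE2* promoter instead held a palindrome, CCGG and CCGG with any 2 bases between them, the sequence bound by Leu3, the activator of leucine biosynthesis genes. That sequence, which was searched after the levels had been seen, lay within 500 bases of 16 of 6000 genes (0.267%), and *DRE2* was the one member with it. One stretch per gene is printed in the direction of the gene (SacCer3), with the core or the palindrome in capitals. GGGTGCA is the core on the opposite strand.
*FET3*, chrXIII:388556-388592: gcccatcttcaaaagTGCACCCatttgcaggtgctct
*FTR1*, chrV:461894-461930: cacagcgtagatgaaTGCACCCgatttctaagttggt
*FIT2*, chrXV:1059267-1059303: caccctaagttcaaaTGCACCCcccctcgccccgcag
*FIT3*, chrXV:1061319-1061355: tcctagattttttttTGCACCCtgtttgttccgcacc
*SIT1*, chrV:27454-27490: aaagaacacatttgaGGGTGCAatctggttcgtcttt
*HMX1*, chrXII:554107-554143: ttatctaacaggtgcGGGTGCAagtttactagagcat
*ISU1*, chrXVI:297286-297322: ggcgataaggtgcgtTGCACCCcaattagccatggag
*DRE2*, chrXI:576123-576162: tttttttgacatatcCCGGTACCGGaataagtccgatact
*LEU1*, chrVII:478845-478884: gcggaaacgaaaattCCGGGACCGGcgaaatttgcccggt
*LEU1*, an enzyme of leucine synthesis that is no member, is shown because its levels ran with those of *DRE2*. These are matches of letters only, and the binding of either factor was not measured.

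*DRE2* (YKR071C, chromosome XI, 574934 to 575980, minus strand) encodes an electron carrier of cytosolic iron-sulfur assembly. It was low in every library that carried *pGAL-3Flag-CSE4*, at both times and with or without *PSH1*. At t0 its levels in batches 1, 2 and 3 were 146, 151 and 155 CPM in WT, 134, 155 and 135 CPM in *psh1Δ*, 172, 167 and 168 CPM in *htz1Δ*, and 125, 127 and 151 CPM in *pGAL-H3*. With the insertion they were 88.7 and 86.1 CPM in *pGAL-3Flag-CSE4* (batches 2 and 3) and 84.0, 89.9 and 89.9 CPM in *psh1Δ pGAL-3Flag-CSE4*. At t0 the strains with the insertion lay below the others, as they did in 17 genes of the tables (0.274%), but 3 of these libraries and the WT ones had chosen the gene. The *pGAL-3Flag-CSE4* libraries had no part in that choice, and *psh1Δ* alone lay among the strains without the insertion. In bulk cultures, a lower level in each cell and a smaller share of cells with the transcript cannot be told apart.

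At t2 the *DRE2* levels were 184, 173 and 178 CPM in WT, 169.9, 167 and 184 CPM in *psh1Δ*, 197, 209 and 223 CPM in *htz1Δ*, and 163, 173 and 179 CPM in *pGAL-H3*. They were 120.0 and 106 CPM in *pGAL-3Flag-CSE4* and 95.8, 96.4 and 98.9 CPM in *psh1Δ pGAL-3Flag-CSE4*. The highest library with the insertion, 120.0 CPM, lay below the lowest of the others at the same time, 163 CPM. Raw counts of *DRE2* ran from 459 to 1200 per library.

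**Figure D1:**
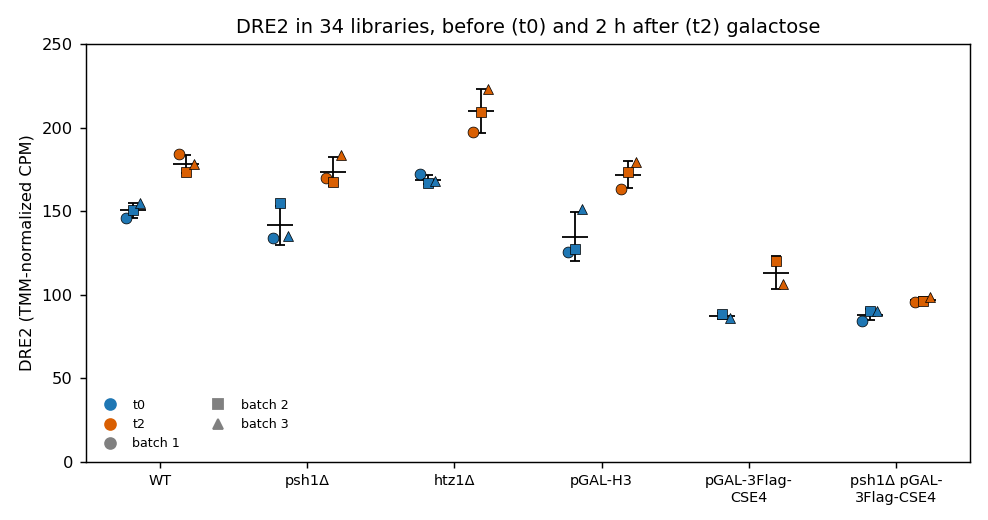
*DRE2* in TMM-normalized CPM (vertical axis, from 0) in all 34 libraries, by genotype, with t0 in blue, t2 in orange and batches as symbols; horizontal marks and bars are the mean and SD. The 10 libraries of the 2 genotypes with *pGAL-3Flag-CSE4* lie between 84.0 and 120.0 CPM, and the other 24 between 125 and 223 CPM.

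Ordered by mean, the *DRE2* levels began with *pGAL-3Flag-CSE4* at t0 (87.4 ± 1.81 CPM, SD, n = 2) and *psh1Δ pGAL-3Flag-CSE4* at t0 (88.0 ± 3.42, n = 3), whose ranges overlapped. They were followed by *psh1Δ pGAL-3Flag-CSE4* at t2 (97.0 ± 1.61, n = 3) and *pGAL-3Flag-CSE4* at t2 (113 ± 9.83, n = 2), which each lay clear of their neighbours in this order. *pGAL-H3*, *psh1Δ* and WT at t0 came next (135 ± 14.6, 141 ± 11.9 and 150.4 ± 4.29) and overlapped one another. *htz1Δ* at t0 (169 ± 2.73) overlapped *pGAL-H3* at t2 (172 ± 8.21), and that group overlapped *psh1Δ* (174 ± 8.88) and WT (178 ± 5.36) at t2. *htz1Δ* at t2 stood at the top (209.9 ± 13.1), above every other group.

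Against WT at t2, *DRE2* was 1.85-fold lower in *psh1Δ pGAL-3Flag-CSE4* (log2 fold change -0.89, SE 0.09, Benjamini-Hochberg adjusted p = 0.000621 by edgeR's quasi-likelihood test). It was the one of the 8 genes called in that comparison, where 7.83% of all genes were called and 3.12% were called lower. The call stood in all 10 alternatives, with log2 fold changes of -0.91 to -0.85 and a highest adjusted p of 0.0300. These are the strains whose t0 libraries, with those of WT, had chosen *DRE2*, so the call is not independent of that choice. The same WT strains serve in the next comparison. In *pGAL-3Flag-CSE4* at t2 *DRE2* was 1.59-fold lower (log2 fold change -0.67, SE 0.10, adjusted p = 0.0215 by the same edgeR test). It was again the one member called, against 0.306% of all genes called and 0.242% called lower. With the batch as a block the edgeR adjusted p of this second difference was 0.135 (log2 fold change -0.65), and without batch 1, 2 or 3 it was 0.141, 0.0730 or 0.252. Leaving out batch 2 or 3 left a single *pGAL-3Flag-CSE4* library, which was assumed to vary like WT.

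Before galactose *DRE2* was 1.72-fold lower in *pGAL-3Flag-CSE4* than in WT (log2 fold change -0.79, SE 0.08), which missed the threshold with edgeR (adjusted p = 0.0656). None of the 8 genes was called there, against 0.0322% of all genes. However, 2 members (*DRE2* and *ISU1*) had an unadjusted p under 0.05, as had 331 of 6209 genes, and DESeq2 called 1 (against 0.161% of all genes). With the batch as a block, edgeR called 4 members against 0.435% of all genes. *DRE2* was lower (log2 fold change -0.80, adjusted p = 0.0117), while *FTR1* (0.90, adjusted p = 0.0186), *FIT2* (1.01, adjusted p = 0.04999) and *FIT3* (1.08, adjusted p = 0.0186) were higher. Without batch 3, *FIT2* was the one member edgeR called (log2 fold change 0.64, adjusted p = 0.0480), against 0.225% of all genes. The WT libraries of this comparison are those of the contrast that chose the genes. In that contrast itself, *DRE2* was 1.71-fold lower in *psh1Δ pGAL-3Flag-CSE4* than in WT (log2 difference -0.77), with no test.

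From t0 to t2 *DRE2* was higher in all 14 cultures of the genotypes other than *psh1Δ pGAL-3Flag-CSE4*, by 0.11 to 0.44 on the log2 scale with a median of 0.33, as were 667 of 6209 genes (10.7%). In the 3 cultures of *psh1Δ pGAL-3Flag-CSE4*, whose t0 levels had chosen the gene, the differences were 0.10 to 0.19. The rises were under the fold limit. In *htz1Δ* the log2 fold change was 0.32 (SE 0.09, edgeR adjusted p = 0.0249) and in *pGAL-H3* it was 0.36 (SE 0.09, edgeR adjusted p = 0.0271). In WT it was 0.24 (edgeR adjusted p = 0.103), and in *psh1Δ* 0.30 (edgeR adjusted p = 0.202). When the change of each of the 5 genotypes was compared with that of WT, 0 members were called by edgeR, 0 by DESeq2 and 0 had an unadjusted p under 0.05. *DRE2* in *psh1Δ pGAL-3Flag-CSE4* is left out of these counts and has no test there, since its t0 libraries had chosen the gene. The WT t0 libraries were the other side of that contrast. They enter the WT test and all 5 comparisons of changes, so the *DRE2* values there are not independent of the choice. All genes called in those comparisons of changes amounted to 0.00% in *psh1Δ*, 0.00% in *htz1Δ*, 0.0161% in *pGAL-3Flag-CSE4*, 0.338% in *psh1Δ pGAL-3Flag-CSE4* and 0.0161% in *pGAL-H3*. An unadjusted edgeR p under 0.05 was found there, in the same order, for 79, 276, 140, 1002 and 366 of 6209 genes.

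Across the 34 libraries, the 5 genes whose pattern was most like that of *DRE2*, by Pearson's r on log2 CPM among 5850 genes with a mean of at least 10 counts, were *OAC1* (r = 0.95), a mitochondrial carrier of oxaloacetate and isopropylmalate, *LEU1* (0.94), the isopropylmalate isomerase, *BAT1* (0.93), the mitochondrial branched-chain aminotransferase, *ALD5* (0.90), a mitochondrial aldehyde dehydrogenase, and *ILV3* (0.90), dihydroxyacid dehydratase. Leu1 and Ilv3 are themselves iron-sulfur proteins. These values describe points that share strains, batches and the insertion, and without the 6 libraries of the contrast that chose the genes the same r lay between 0.90 and 0.94 over 28 libraries. *LEU1* lay between 105 and 247 CPM in the 10 libraries with the insertion and between 656 and 2513 CPM in the other 24. *OAC1* lay between 39.1 and 56.0 CPM and between 164 and 388 CPM, respectively.

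**Figure D2:**
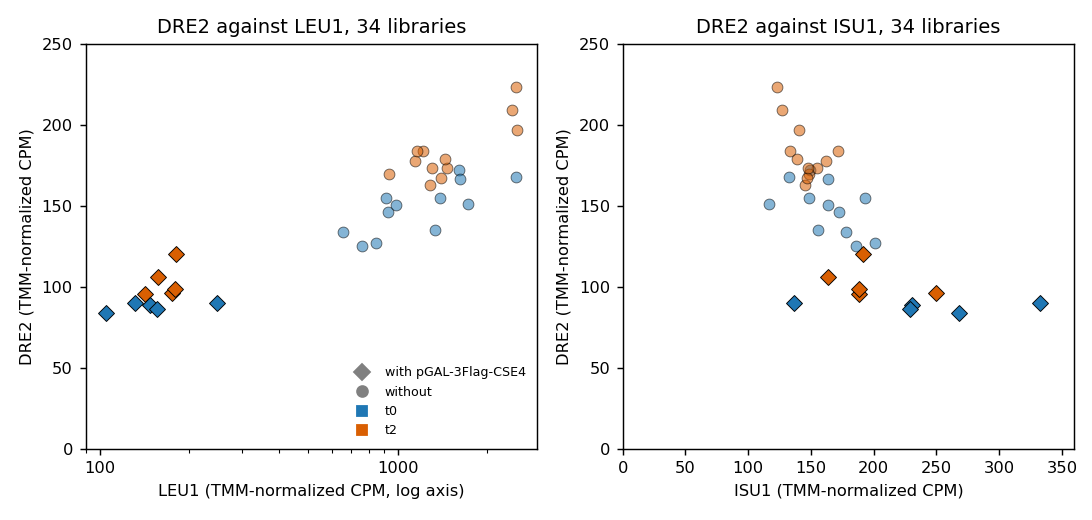
*DRE2* (vertical axis, TMM-normalized CPM) against *LEU1* (left, log axis) and *ISU1* (right, linear axis), one point per library, with diamonds for strains carrying *pGAL-3Flag-CSE4*, circles for the others, blue for t0 and orange for t2. The libraries with the insertion form a separate group low in both *DRE2* and *LEU1*, while *ISU1* spans 136 to 333 CPM in them and 117 to 201 CPM in the others.

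A complete separation of the 10 libraries with the insertion from the other 24, with the former lower, was seen in 9 of 6209 genes (0.145%). The place of *DRE2* among them is partly fixed by its choice and is a description. Their names were looked up after the count was seen. They were *DRE2*, *LEU1*, *OAC1*, *BAT1*, *ALD5*, *ILV3*, *ILV5*, which encodes another enzyme of isoleucine and valine synthesis, *EDS1* and *ISU2*, the paralog of *ISU1*. At t2 alone the 5 libraries with the insertion lay below the other 12 for 38 genes (0.612%), *DRE2* among them, and above them for 29 (0.467%). Among the 9 genes the palindrome printed above was found before *DRE2*, *LEU1*, *BAT1* and *ILV5*, and the core TGCACCC before 0 of them. *LEU2*, the marker gene, had a different pattern, with 174 to 320 CPM with the insertion and 227 to 474 CPM without it at t0, and 256 to 1133 CPM against 220 to 426 CPM at t2. The r between *DRE2* and *LEU2* was -0.00 over the 34 libraries. Reads of the mutant *leu2* allele count as *LEU2*, so these levels do not show which strains had a functional *LEU2*.

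The genes beside *DRE2* on chromosome XI were *BET3*, *MET1*, *YKR070W*, *SIS2*, *YKR073C* and *AIM29*. None was called by edgeR in *pGAL-3Flag-CSE4* against WT at either time or in *psh1Δ pGAL-3Flag-CSE4* against WT at t2, where the lowest adjusted p was 0.0851 for *YKR070W* (log2 fold change -0.29). Of these 18 tests of 6 genes, 3 had an unadjusted p under 0.05. Over all 6209 genes the same held for 331 (t0) and 351 (t2) in *pGAL-3Flag-CSE4* and for 1983 in *psh1Δ pGAL-3Flag-CSE4* at t2. *SIS2*, which lies next to *DRE2* on the side of its promoter, had 86.1 to 99.4 CPM with the insertion and 76.3 to 115 CPM without it at t2.

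*ISU1* (YPL135W, chromosome XVI, 297553 to 298050, plus strand) encodes the main scaffold on which mitochondrial iron-sulfur clusters are built. Its levels lay opposite to those of *DRE2* (Pearson's r = -0.75 over 34 libraries, as a description). At t0 it had 172, 164 and 149 CPM in WT, 230.5 and 229 CPM in *pGAL-3Flag-CSE4*, and 268, 333 and 136 CPM in *psh1Δ pGAL-3Flag-CSE4*. The culture of batch 3 of the last genotype was thus below all WT libraries, whereas the other batches were above them. At t2 the levels were 134, 154 and 162 CPM in WT and 188, 249 and 188 CPM in *psh1Δ pGAL-3Flag-CSE4*, a higher range without overlap that 17.9% of all genes had there. This difference of 0.47 on the log2 scale (SE 0.13, edgeR adjusted p = 0.0478) was under the fold limit, and without batch 1, 2 or 3 the edgeR adjusted p was 0.200, 0.0870 or 0.141. *ISU2*, a minor scaffold gene with a low level, went the other way. It had 8.41 to 11.4 CPM with the insertion at t2 and 19.2 to 32.3 CPM without it, and was called lower in *pGAL-3Flag-CSE4* (log2 fold change -1.53, SE 0.21, edgeR adjusted p = 0.0127) and in *psh1Δ pGAL-3Flag-CSE4* (-1.26, SE 0.17, edgeR adjusted p = 0.00347).

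*FET3* (YMR058W, chromosome XIII, 388822 to 390732, plus strand), the multicopper oxidase of high-affinity iron uptake, and *FTR1* (YER145C, chromosome V, 460526 to 461740, minus strand), the permease it works with, moved together (r = 0.96 over 34 libraries). *FTR1* was also the gene most like *FET3* of 5850, followed by *ARN1* (0.93), a siderophore transporter, *TIS11* (0.93), which promotes decay of mRNAs of iron-using proteins, *CCC2* (0.93), which loads copper into Fet3, and *SIT1* (0.91). In WT, *FET3* had 2655, 2239 and 1495 CPM at t0 and 1707, 1410 and 2638 CPM at t2. It fell in batches 1 and 2 and was higher at t2 in batch 3. In *psh1Δ pGAL-3Flag-CSE4* it had 3370, 4430 and 1398 CPM at t0 and 1092, 2008 and 1518 CPM at t2, and in *pGAL-3Flag-CSE4* 3110 and 2750 CPM at t0 and 2453 and 2226 CPM at t2. The same split by batch was present in *FTR1*. Its WT levels were 1345, 889.9 and 629 CPM at t0 and 785, 480.2 and 1141 CPM at t2.

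*FIT2* (YOR382W, chromosome XV, 1059531 to 1059992, plus strand) and *FIT3* (YOR383C, chromosome XV, 1060441 to 1061055, minus strand) encode mannoproteins that retain siderophore-bound iron in the cell wall. Per kilobase of gene they were the most abundant members, with median levels of 3972 (*FIT3*) and 2607 (*FIT2*) CPM per kb, against 1127 for *FET3*, 734 for *FTR1*, 327 for *ISU1*, 288 for *SIT1*, 197 for *HMX1* and 146 for *DRE2*. They also varied most, 22.3-fold between the lowest and the highest library for *FIT3* and 16.6-fold for *FIT2*, against 2.66-fold for *DRE2*. *FIT3* had 6382, 5216 and 2148 CPM in WT at t0 and 1728, 852 and 2419 CPM at t2. *psh1Δ pGAL-3Flag-CSE4* had 9321, 13732 and 2287 CPM of it before galactose and 2408, 3492 and 1210.2 CPM at t2. *FIT3* was therefore lower after galactose in every batch of the second genotype and in batches 1 and 2 of WT. In *pGAL-H3* it went from 8516, 11300.0 and 1734 CPM to 2467, 2040 and 1087 CPM.

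*SIT1* (YEL065W, chromosome V, 27657 to 29543, plus strand) transports iron bound to hydroxamate siderophores. It had 1096, 869 and 379.7 CPM in WT at t0 and 479, 367 and 624 CPM at t2, again with batch 3 opposite to the other batches. *HMX1* (YLR205C, chromosome XII, 552724 to 553677, minus strand) encodes heme oxygenase, which frees iron from heme. It had 233, 243 and 87.4 CPM in WT at t0 and 150.0, 175 and 215 CPM at t2.

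Counted over cultures, *FET3*, *FTR1*, *FIT2*, *FIT3*, *SIT1*, *HMX1* and *ISU1* were each lower at t2 in all 11 cultures of batches 1 and 2, as were 815 of 6209 genes (13.1%). The median log2 differences in these cultures were -0.74 for *FET3*, -0.99 for *FTR1*, -2.40 for *FIT2*, -1.98 for *FIT3*, -1.20 for *SIT1*, -0.50 for *HMX1* and -0.37 for *ISU1*. In the 6 cultures of batch 3, *FIT2* and *FIT3* were lower at t2 in 5 and *SIT1* in 3, while *FET3*, *FTR1* and *ISU1* were higher in 4. *HMX1* was higher at t2 in all 6 cultures of batch 3, and 8 of 6209 genes (0.129%) had that combination of falling in every culture of batches 1 and 2 and rising in every culture of batch 3. In WT, batch 3 stood apart at both times, in opposite directions. Its *FIT3* level there lay below the mean of the other batches at t0 (log2 difference -1.43) and above it at t2 (0.995), and its *FET3* level likewise (-0.71 and 0.77). At t2 the *FIT3* level of batch 3 was also above in *psh1Δ* (0.97). It was below in *htz1Δ* (-0.69), *pGAL-H3* (-1.05), *pGAL-3Flag-CSE4* (-1.12, against batch 2 alone) and *psh1Δ pGAL-3Flag-CSE4* (-1.26). Over all genotypes the *FIT3* median at t0 was 6382 CPM in batch 1 (n = 5), 7844 CPM in batch 2 (n = 6) and 2218 CPM in batch 3 (n = 6), and at t2 it was 1728, 1570.3 and 1747 CPM. *HMX1* at t0 had medians of 233, 272 and 114 CPM. *DRE2* had no such gap, with medians at t0 of 134, 139 and 143 CPM.

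**Figure D3:**
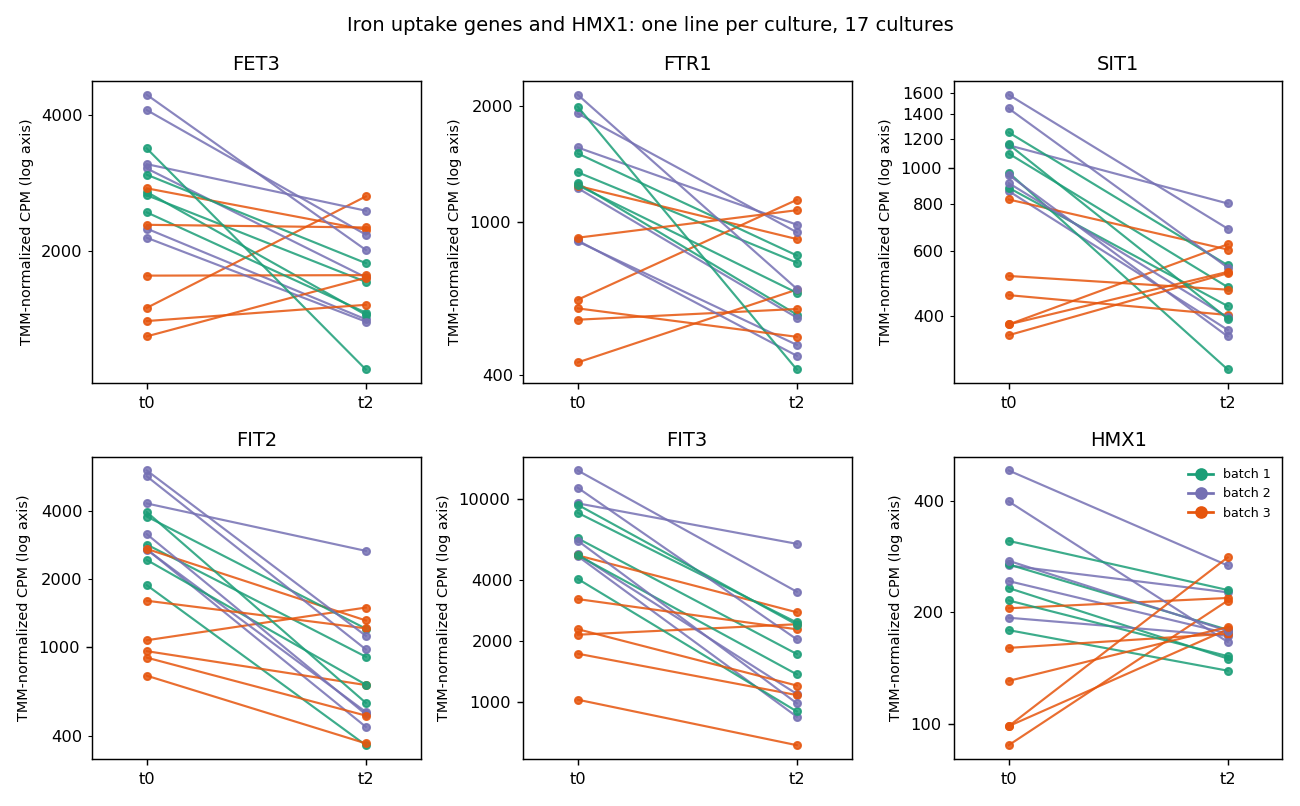
Levels at t0 and t2 (TMM-normalized CPM, log axes) of 5 uptake genes and *HMX1*, one line per culture, coloured by batch. All 11 lines of batches 1 and 2 fall in each panel; of the 6 lines of batch 3, 4 rise in *FET3* and *FTR1*, 3 in *SIT1* and all 6 in *HMX1*.

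The tests of t2 against t0 within a genotype reflected this spread. In *htz1Δ* 3 members were called by edgeR with Benjamini-Hochberg adjustment, all lower at t2, where 10.8% of all genes were called and 5.88% were called lower. *FIT2* fell 4.23-fold (log2 fold change -2.08, SE 0.39, adjusted p = 0.00692), *FIT3* 3.93-fold (-1.98, SE 0.49, adjusted p = 0.0200) and *SIT1* 2.28-fold (-1.19, SE 0.26, adjusted p = 0.0131). In *pGAL-H3*, *FIT2* fell 3.66-fold (-1.87, SE 0.55, edgeR adjusted p = 0.0399) and *FIT3* 3.84-fold (-1.94, SE 0.60, edgeR adjusted p = 0.0483), where 10.8% of all genes were called and 5.01% were called lower. All 5 of these calls were lost when batch 1 or batch 2 was left out, with edgeR adjusted p from 0.0548 to 0.145 in *htz1Δ* and from 0.191 to 0.299 in *pGAL-H3*. With the batch as a block, edgeR also called *FTR1* lower in *htz1Δ* (-0.71, adjusted p = 0.0493), against 11.3% of all genes.

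No member was called by edgeR in the 4 remaining genotypes. In WT 3.00% of all genes were called and 3 members had an unadjusted p under 0.05, with 0 members called by DESeq2. In *psh1Δ* 0.805% of all genes were called (4.41% with the batch as a block) and 4 members had an unadjusted p under 0.05, with 3 called by DESeq2 (against 4.36% of all genes). In *pGAL-3Flag-CSE4* these values were 4.86%, 6 members and 0, and in *psh1Δ pGAL-3Flag-CSE4* they were 6.28%, 4 members and 2 (against 7.88% of all genes). With the batch as a block edgeR called *FIT2* and *FIT3* lower in *pGAL-3Flag-CSE4* (log2 fold changes -0.88 and -0.80, adjusted p = 0.00460 and 0.0114, against 6.10% of all genes) and in *psh1Δ pGAL-3Flag-CSE4* (-2.05 and -1.62, adjusted p = 0.0433 and 0.0355, against 5.20%). Without batch 3, edgeR called 4 members lower in WT, 5 in *psh1Δ*, 5 in *htz1Δ*, 3 in *psh1Δ pGAL-3Flag-CSE4* and 6 in *pGAL-H3*, against 6.46%, 8.07%, 15.3%, 5.14% and 15.4% of all genes. *FIT3* then fell 4.52-fold in WT (log2 fold change -2.18, SE 0.31, edgeR adjusted p = 0.0127), and *FIT2* 4.79-fold in *psh1Δ* (-2.26, SE 0.19, edgeR adjusted p = 0.000671). What set batch 3 apart was not tested.

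Few differences in uptake genes between genotypes passed the test. Against WT at t2, *FIT2* was 2.27-fold lower in *htz1Δ* (log2 fold change -1.18, SE 0.33, edgeR adjusted p = 0.0306), the one member called where 6.54% of all genes were called and 3.93% were called lower. Its levels were 365, 513 and 372 CPM in *htz1Δ* and 902, 440.2 and 1493 CPM in WT, so batch 2 ran the other way. The call was lost without batch 1 (edgeR adjusted p = 0.229) and without batch 3 (0.246), while without batch 2 edgeR called 4 members lower (*FTR1*, *FIT2*, *FIT3* and *SIT1*, with *FIT2* at -1.70, adjusted p = 7.2e-05), against 6.60% of all genes. *FIT3* was higher in *pGAL-3Flag-CSE4* at t2 by 1.39 on the log2 scale (SE 0.39), with 5998 and 2768 CPM against 852 to 2419 CPM in WT, and did not pass (edgeR adjusted p = 0.427). Without batch 3, which left a single *pGAL-3Flag-CSE4* library, edgeR called *FIT2* (1.97, adjusted p = 0.0152) and *FIT3* (2.20, adjusted p = 0.00600) higher there, against 0.515% of all genes.

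In *psh1Δ pGAL-3Flag-CSE4* at t2, *HMX1* had 230.0, 268 and 282 CPM against 150.0, 175 and 215 CPM in WT. It was thus higher without overlap, as were 17.9% of all genes there. The difference was 0.52 on the log2 scale (SE 0.14, edgeR adjusted p = 0.0374), under the fold limit, with an edgeR adjusted p of 0.140, 0.0752 or 0.106 without batch 1, 2 or 3 and of 0.392 with all 34 libraries in 1 fit. Without batch 2, *FET3*, *FTR1* and *FIT2* were also called lower by edgeR in this genotype (log2 fold changes -0.74, -1.07 and -1.19, adjusted p = 0.0317, 0.00263 and 0.00290), against 13.2% of all genes, while without batch 3 *FIT2* lay at 0.31 (edgeR adjusted p = 0.702). For *psh1Δ* and *pGAL-H3* against WT, 0 members were called by edgeR or DESeq2 at either time and 0 had an unadjusted p under 0.05, against 0.0161% of all genes at both times in *psh1Δ* and 0.0161% (t0) and 0.0483% (t2) in *pGAL-H3*. For *htz1Δ* at t0 the same counts were 0, against 2.98% of all genes. Over all 6209 genes, 1414 had an unadjusted edgeR p under 0.05 in that comparison. The numbers were 171 (t0) and 105 (t2) in *psh1Δ*, and 534 (t0) and 236 (t2) in *pGAL-H3*. The contrast that chose the genes is given as log2 ratios of the mean CPM of *psh1Δ pGAL-3Flag-CSE4* to that of WT at t0, with no test. They were 0.53 for *FET3*, 0.72 for *FTR1*, 0.72 for *FIT2*, 0.88 for *FIT3*, 0.41 for *SIT1*, 0.67 for *HMX1* and 0.61 for *ISU1*. Such ratios of means give more weight to the batches with high levels. In batch 3 alone the log2 differences were -0.10, -0.07, -0.26, 0.09, 0.00, 0.17 and -0.12 in the same order, so 4 of the 7 were below WT. All comparisons with WT at one time share the same 3 WT libraries.

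**Figure D4:**
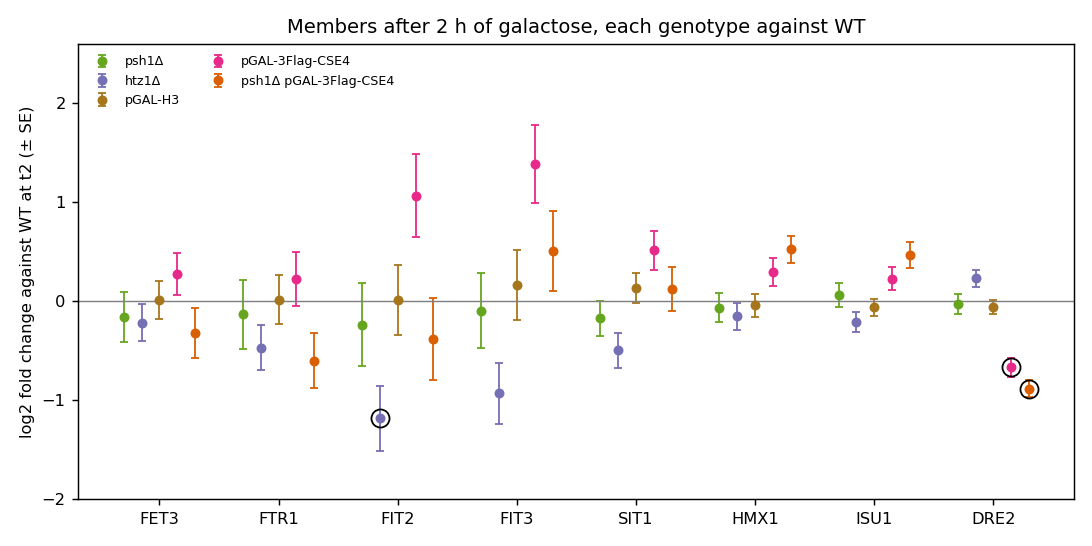
Log2 fold change of each of the 8 genes against WT at t2, with its standard error, in the 5 other genotypes; black rings mark genes called by edgeR. The rings lie on *DRE2* in both genotypes with *pGAL-3Flag-CSE4* (-0.67 and -0.89) and on *FIT2* in *htz1Δ* (-1.18).

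The wider pathway was followed through 6 lists that include the 8 genes. Of 23 genes of iron uptake and reduction, 19 had the core TGCACCC within 500 bases of the start. The shares of all genes called lower at t2 than at t0 were 1.87% in WT, 0.451% in *psh1Δ*, 5.88% in *htz1Δ*, 3.09% in *pGAL-3Flag-CSE4*, 2.92% in *psh1Δ pGAL-3Flag-CSE4* and 5.01% in *pGAL-H3*, and the list counts stand beside these. In *htz1Δ* 13 of the 23 were called lower at t2 than at t0 and 0 higher, with a median log2 fold change of -0.67 against -0.01 over all genes. The largest falls were in *ARN2*, a siderophore transporter (-2.68), *FIT2* and *FIT3*. In *pGAL-H3* 5 were lower (median -0.66), among them *ARN2* (-2.93), *FIT1* (-1.90), a cell wall mannoprotein like *FIT2*, and *FRE5* (-0.70), a putative reductase. In *psh1Δ pGAL-3Flag-CSE4* 4 were lower (median -1.24), namely *FIT1* (-1.63), *ATX1* (-1.38), the copper chaperone that serves Ccc2, *FRE5* (-1.30) and *FRE6* (-1.24), a vacuolar reductase. *FIT1* was the one called in WT (-1.29, median of the list -0.43), and *FIT1* and *FRE5* were called in *psh1Δ* (-0.98 and -0.67, median -0.48). In *pGAL-3Flag-CSE4* edgeR called 0 of 23 (median -0.41), and 14 had an unadjusted p under 0.05, as had 1647 of 6209 genes. Within batch 3 the median over the list lay between -0.46 and 0.23 in the 6 cultures, and within batches 1 and 2 between -1.56 and -0.45 in the 11.

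Among 15 regulators and iron-sparing genes, *MRS4*, a mitochondrial iron carrier, and *COT1*, a vacuolar metal transporter, were called lower at t2 in *htz1Δ* (-0.73 and -0.75), *pGAL-3Flag-CSE4* (-0.76 and -0.90), *psh1Δ pGAL-3Flag-CSE4* (-1.36 and -1.31) and *pGAL-H3* (-1.07 and -0.99), and *TIS11* in *htz1Δ* (-1.41). Of 18 genes of mitochondrial iron-sulfur assembly, *IBA57*, a late-acting factor, was lower at t2 in WT (-0.66) and *htz1Δ* (-1.03), and *JAC1*, a co-chaperone of the scaffold, in *htz1Δ* (-0.59). Of 10 genes of the cytosolic machinery, *TAH18*, the reductase that passes electrons to Dre2, was called higher at t2 in *pGAL-H3* (0.60), as were 5.80% of all genes. Of 20 iron-sulfur proteins, *BIO2*, biotin synthase, was higher at t2 in *pGAL-3Flag-CSE4* (0.71) and *psh1Δ pGAL-3Flag-CSE4* (1.36), where 1.77% and 3.37% of all genes were called higher, and *ACO1*, aconitase, was lower in *htz1Δ* (-0.63). None of 9 heme synthesis genes was called by edgeR at t2 against t0 in any genotype, with 1 to 3 of them at an unadjusted p under 0.05. Between 1205 (*psh1Δ*) and 2431 (*pGAL-H3*) of all 6209 genes had such a p. Over the 6 genotypes the medians at t2 against t0 lay between -0.19 and -0.03 for the regulators, -0.30 and -0.15 for mitochondrial assembly, 0.13 and 0.20 for the cytosolic machinery, -0.04 and 0.24 for iron-sulfur proteins and -0.13 and 0.06 for heme synthesis, beside -0.01 to 0.01 over all genes.

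Against WT, genes of these lists were called in 3 genotypes. Of all genes, 2.32% were called lower in *htz1Δ* at t0, 3.93% lower and 2.61% higher in it at t2, and 4.70% higher in *psh1Δ pGAL-3Flag-CSE4* at t2, beside the shares given above. In *htz1Δ*, *FET4*, the low-affinity iron transporter, and *CFD1*, a cytosolic scaffold, were lower at t0 (-1.12 and -0.96) and t2 (-0.999 and -0.97), and at t2 also *ENB1*, a siderophore transporter (-1.15), *JAC1* (-0.84) and *HEM14*, a late heme enzyme (-1.09), while *LEU1* was higher (0.96). In *pGAL-3Flag-CSE4*, *LEU1* was 7.28-fold lower at t0 (-2.86) and at t2 *LEU1* (-2.93), *ILV3* (-1.21) and *ISU2* were lower beside *DRE2*. In *psh1Δ pGAL-3Flag-CSE4* at t2 the same genes were lower (*LEU1* -2.96, *ILV3* -1.16), along with *ATX1* (-0.88), *FRE6* (-0.92), *AFT1*, which encodes the activator of iron uptake (-0.65), and *COT1* (-0.66), while *SDH2*, the iron-sulfur subunit of succinate dehydrogenase, was higher (0.61). The lists' medians in that comparison lay between -0.13 and 0.14 and that of all genes at -0.00. In *psh1Δ* and *pGAL-H3* edgeR called 0 genes of the 6 lists against WT at either time, with 0 to 2 genes of a list at an unadjusted p under 0.05. Between 105 (*psh1Δ* at t2) and 534 (*pGAL-H3* at t0) of all 6209 genes had such a p.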

How the data were processed

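RNA-seq was run on 17 yeast strains, in 34 libraries. The authors aligned single 50-base reads to SacCer3 with TopHat 2.1.0, counted them per gene with HTSeq 0.6.1, removed genes with low counts and used edgeR 3.12.0. Whether strand was used in counting is not given in the sources used here. Raw counts stand in 8 deposited tables, in 64 columns of which 30 repeat a library with identical values. The 64 columns of normalized CPM and the authors' own comparisons (fold changes, p-values and calls) were not used here.

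The counts were analysed as deposited in R 4.3.3 with edgeR 4.0.16 (TMM, glmQLFit and glmQLFTest), each comparison on the libraries of its own groups and without a block, and p-values were adjusted over all 6209 genes by the Benjamini-Hochberg method. Standard errors are the size of the log2 fold change divided by the square root of the F statistic. Log2 values of single cultures used a pseudocount of 0.5 CPM. The test was checked on simulated counts that had a single common dispersion and no batch or strain effect. That check does not cover genes that vary between batches as the uptake genes do. Totals of 5258139 to 6836827 counts per library set the counting precision. The p-values rest on the spread within a genotype, in which strain, culture and batch come together. In the main tests t0 and t2 of a culture were not paired.

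The 20 comparisons were t2 against t0 in each genotype, each genotype against WT at t0 and at t2 (except the one that chose the genes) and each change against that of WT. The labels name the numbers as batches, which pairs the libraries, and t0 and t2 of a number within a genotype come from 1 strain. Deviations from the means of the groups were correlated at -0.396 to 0.797 (median 0.15) in 177 pairs of libraries that share a batch, 96 of them over 0.1.

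The 8 genes and the 6 lists were chosen with earlier results of these data known. Named genes were the members, every called gene of a list or, where more than 6 were called, the 3 largest rises and falls, the 5 genes most like *DRE2* and *FET3*, and the genes next to *DRE2*. All genes of the lists were found, by symbol or through synonyms in RefSeq. Promoters were read from the R64 genome, in which 5704 of 5714 genes matched by systematic name had the coordinates of the tables.

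The alternatives were DESeq2 1.42.0, its size factors in edgeR, a block for the batch or culture, edgeR's likelihood ratio test, 1 fit over all 34 libraries, a filter that keeps genes with 10 counts in 3 or more libraries, calls with no fold-change minimum, and each batch left out. The palindrome, the 500-base window, the counts over cultures and the values without libraries of the contrast that chose the genes were added after the data were seen.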

Additional observations from a re-analysis of the deposited data

How the results depend on the processing

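Of 159 log2 fold changes of members, called or not, 44 had the other sign under at least 1 alternative, 0 of them called in the report or where the sign had turned, and in 40 this happened only when a batch was left out (for example *FET3* at t2 against t0 in WT, -0.16, with a highest value of 0.13). In the 10 comparisons with WT and of changes not named here 0 members were called under every alternative. With DESeq2 the number of members called was 2 in *psh1Δ pGAL-3Flag-CSE4*, 3 in *psh1Δ* and 5 in *htz1Δ* at t2 against t0, 1 in *pGAL-3Flag-CSE4* against WT at t0 and 0 in *htz1Δ* against WT at t2. With edgeR's likelihood ratio test it was 1 in WT, 3 in *psh1Δ pGAL-3Flag-CSE4*, 3 in *psh1Δ* and 5 in *htz1Δ* at t2 against t0, 1 in *pGAL-3Flag-CSE4* against WT at t0 and 2 in *htz1Δ* against WT at t2. With all 34 libraries in 1 fit it was 4 in *psh1Δ pGAL-3Flag-CSE4* at t2 against t0, 1 in *pGAL-3Flag-CSE4* against WT at t0 and 0 in *htz1Δ* against WT at t2. Without a fold-change minimum it was 3 in *psh1Δ pGAL-3Flag-CSE4* against WT at t2. *DRE2* was then also called higher at t2 than at t0 in *htz1Δ* and *pGAL-H3*. With the batch as a replicate block it was 2 at t2 against t0 in both genotypes with the insertion, and 4 at t0 and 0 at t2 in *pGAL-3Flag-CSE4* against WT. The block also moved the count of all genes called from 50 to 274 in *psh1Δ* at t2 against t0, from 185 to 364 in *htz1Δ* against WT at t0, from 1 to 72 in *pGAL-H3* against WT at t0, from 2 to 27 in *pGAL-3Flag-CSE4* against WT at t0, and from 486 to 276 in *psh1Δ pGAL-3Flag-CSE4* against WT at t2. Leaving out each batch in turn gave 0 to 4 members in WT, 0 to 5 in *psh1Δ*, 0 to 3 in *psh1Δ pGAL-3Flag-CSE4*, 0 to 5 in *htz1Δ* and 0 to 6 in *pGAL-H3* at t2 against t0. Against WT it gave 0 to 1 in *pGAL-3Flag-CSE4* at t0, and at t2 0 to 4 in *htz1Δ*, 0 to 2 in *pGAL-3Flag-CSE4* and 1 to 4 in *psh1Δ pGAL-3Flag-CSE4*. The causes were not tested. *pGAL-3Flag-CSE4* at t2 against t0 could not be fitted without batch 2 or 3, and where 1 library of a group was left it was assumed to vary like the other group. The main test had 2 or 3 cultures per group and no block. At these totals it could miss differences in the uptake genes that are smaller than their spread between batches. With the batch as a block, edgeR called such a difference for *FIT3* in *pGAL-3Flag-CSE4* at t2 against t0.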

Other observations

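The members fell into groups by their correlation over the 34 libraries (log2 CPM, as a description of libraries that share strains, batches and the insertion). *FET3*, *FTR1*, *FIT2*, *FIT3* and *SIT1* had pairwise r of 0.82 to 0.97, the highest between the neighbouring genes *FIT2* and *FIT3*. *HMX1* ran with them less closely (0.60 to 0.78), as did *ISU1* (0.65 to 0.75), and *HMX1* and *ISU1* had r = 0.79 with each other. *DRE2* had negative r with all 7, from -0.31 with *FET3* to -0.75 with *ISU1*.

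Further genes high on the list of likeness to *DRE2*, chosen after its values were seen, were *ISU2* (r = 0.90), *FSF1* (0.89), a putative mitochondrial carrier, *ILV5* (0.88), *PAN5* (0.87), a gene of pantothenate synthesis, and *CDC60* (0.87), the cytosolic leucyl-tRNA synthetase.

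The medians over all genes of the chromosomes that carry the 8 genes lay between -0.07 and 0.04 on the log2 scale relative to WT of the same time and batch, in the 28 libraries of the other genotypes.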
